A study of Saccharomyces cerevisiae with 16 samples.

Results

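A set of 10 genes of the yeast cell wall were followed across the study: the glucan synthase genes FKS1 and GSC2, the wall protein genes CRH1, PIR1, PIR3, CIS3, HSP150 and CWP1, and the kinase gene SLT2 with the transcription factor gene RLM1. They were taken by name, out of 5449 genes with a named probe set. For each of the 10, 1 probe set was used, the brightest where a gene had more than 1. All 10 have the plain ID suffix that the array design gives to probes specific to 1 transcript. Levels are log2 signal, so a difference of 1 is a 2-fold difference.

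The wild-type strain BY4741, a haploid of mating type a, was grown with shaking at 30 °C in rich medium with glucose and used in early exponential growth. The 16 Affymetrix arrays, 4 per group, hold untreated control cells and cells exposed for 1 h to acrolein at 0.05 mM, to H2O2 at 0.3 mM or to NEM at 0.016 mM. H2O2 is hydrogen peroxide, acrolein a reactive aldehyde that binds thiols, and NEM, given only as this abbreviation, is read here as N-ethylmaleimide, a thiol-binding compound. The doses differ between the compounds, so a larger response to one of them does not rank their potency. Every group, controls included, carries the marker deletions of this strain: URA3, LEU2 and MET17 read 1.92 to 1.98 on all 16 arrays, at or next to the lowest value of the file. The genes of a cells STE2, BAR1, MFA1, MFA2, STE6 and AGA2 read 10.78 to 13.50, and both alpha-factor genes were at most 2.97. Of the other genes known from alpha cells, the receptor gene STE3 read 4.44 to 7.59 and the agglutinin gene SAG1 10.79 to 11.97.

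The yeast wall is a glucan layer with chitin, into which mannoproteins are anchored. Sensors in the plasma membrane report wall strain to the GTPase Rho1, which both activates glucan synthase and starts a kinase relay through Pkc1, Bck1 and the Mkk1 and Mkk2 pair to the mitogen-activated kinase Slt2. Slt2 activates Rlm1, a factor that binds the promoters of many wall genes, and Swi4, a factor of late G1. The relay acts through phosphorylation, which transcript levels do not show.

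The arrays were similar in overall signal, with medians of 11.85 to 11.92 over the tested probe sets. The precision is limited by the number of arrays, 4 per group. The labels do not say whether the 4 arrays of a group are separate cultures. The p-values therefore cover the spread among arrays, and that spread may be technical. Acrolein replicate 1 stood apart in RNA quality, with a mean ribosomal RNA signal of 15.47 against 4.79 to 12.81 on the other 15 arrays, and a 3′ minus 5′ signal of 1.20 against 0.60 to 0.78. The lowest ribosomal RNA signal, 4.79, was on H2O2 replicate 4. In bulk RNA, fewer cells with a transcript and less transcript per cell cannot be told apart.

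**Figure D1:**
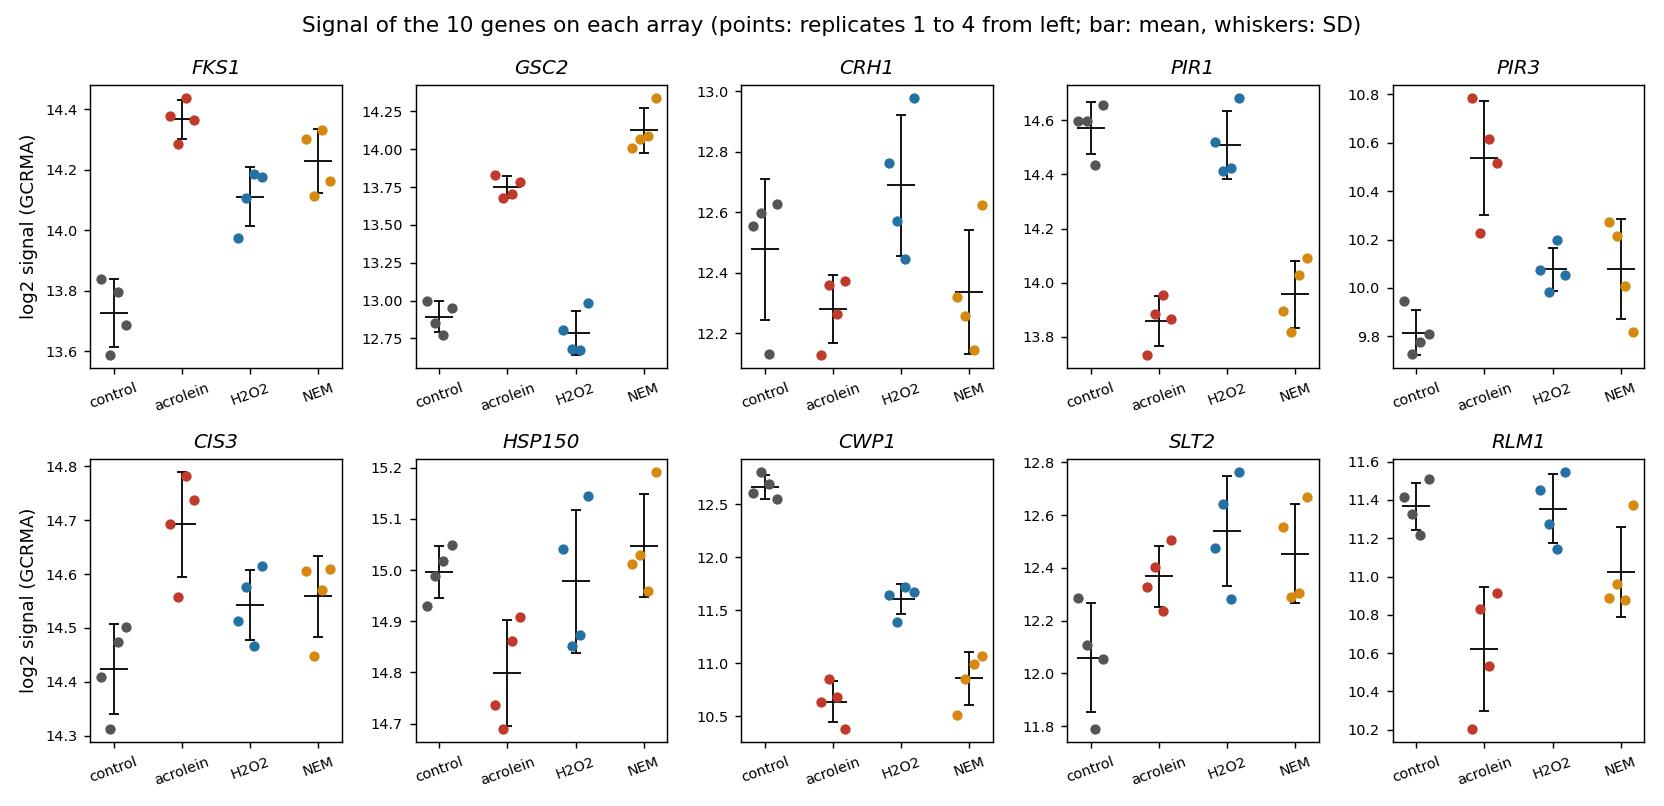
Log2 signal of each of the 10 genes on every array, with 4 points per group (replicates 1 to 4 from left to right), the group mean as a bar and the SD as whiskers. Each panel has its own vertical scale, and levels are to be compared within a panel only. CWP1 lay below the control on all 12 treated arrays, and GSC2 separated the acrolein and NEM arrays from the others.

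Against the control, acrolein changed 9 of the 10 genes, NEM 5 and H2O2 3, by limma with Benjamini-Hochberg adjusted p under 0.05 over all 5775 probe sets tested. Of all probe sets, 64.1% were called after acrolein (27.2% higher and 36.9% lower), 58.7% after NEM (26.4% higher and 32.2% lower) and 19.9% after H2O2 (9.25% higher and 10.6% lower). For acrolein the majority of the genome was called as well, and the NEM and H2O2 counts lie near these shares. With replicate number as a block, NEM raised 5 members and lowered 3. After acrolein 5 members rose and 4 fell, with a median difference of 0.04 beside -0.05 over all probe sets. After NEM 3 rose and 2 fell (median 0.09 beside -0.01), and after H2O2 2 rose and 1 fell (median 0.05 beside -0.02). The wall genes thus did not move in 1 direction, and the median hides opposite changes of single genes. The treated and control arrays did not overlap for 8 members after acrolein, 5 after NEM and 3 after H2O2, beside 57.9%, 54.5% and 25.2% of all probe sets. All 3 comparisons use the same 4 control arrays.

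**Figure D2:**
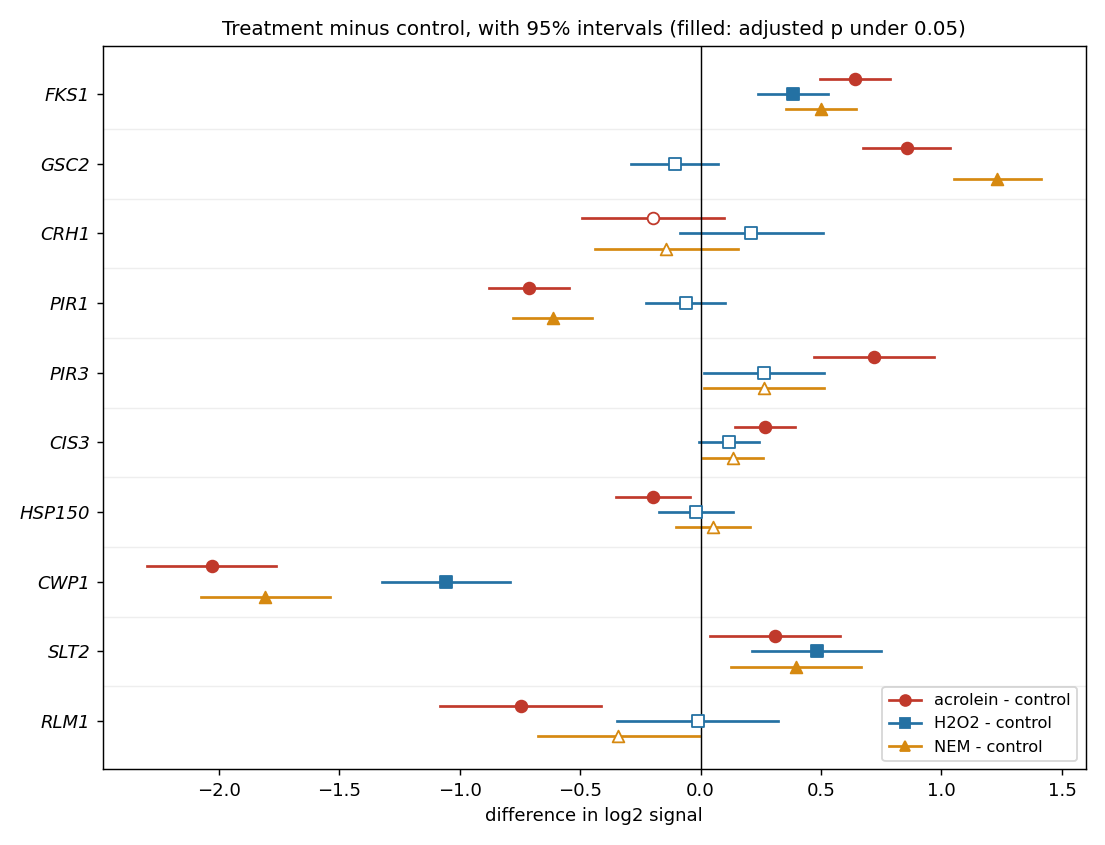
Differences in log2 signal between each treatment and the control for the 10 genes, with 95% intervals of the limma model, 4 arrays per group. Filled symbols have an adjusted p under 0.05. CWP1 has the lowest values under every treatment, from -2.03 to -1.06, and FKS1 and SLT2 are called higher under all 3. PIR3 and CIS3 also lie above 0 under all 3, called only after acrolein.

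FKS1 encodes the main catalytic subunit of glucan synthase in growing cells. Its signal was 13.84, 13.59, 13.79 and 13.69 on the control arrays, 14.38, 14.28, 14.44 and 14.37 after acrolein, 13.97, 14.11, 14.19 and 14.18 after H2O2, and 14.30, 14.11, 14.33 and 14.16 after NEM. All 12 treated arrays were above all 4 control arrays. FKS1 rose by 0.64 ± 0.07 after acrolein (SE, n = 4 per group, limma adjusted p = 2.61e-06), which is 1.56-fold. The rise was 0.50 ± 0.07 after NEM (adjusted p = 2.57e-05) and 0.38 ± 0.07 after H2O2 (adjusted p = 0.00122). Ordered by level, the groups ran control, H2O2, NEM and acrolein. Acrolein was above H2O2 by 0.26 ± 0.07 (adjusted p = 0.00585). The neighbours H2O2 and NEM (0.12, 95% interval -0.03 to 0.26) and NEM and acrolein (0.14, -0.01 to 0.28) had no called difference. The acrolein array was nonetheless higher than the NEM array of the same number in 4 of 4 pairs.

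GSC2, also called FKS2, encodes the alternative catalytic subunit, known for expression under stress and on poor carbon sources and for a calcineurin input beside that of the wall integrity pathway. Its signal was 13.00, 12.85, 12.77 and 12.95 in the control and 12.81, 12.68, 12.67 and 12.99 after H2O2. It was 13.83, 13.68, 13.70 and 13.79 after acrolein and 14.01, 14.07, 14.09 and 14.34 after NEM. The H2O2 arrays overlapped the control, the acrolein arrays lay above both, and the NEM arrays lay above the acrolein arrays. GSC2 rose by 1.23 ± 0.08 after NEM (2.35-fold, adjusted p = 3.2e-08) and by 0.86 ± 0.08 after acrolein (1.81-fold, adjusted p = 1.32e-06). After H2O2 the difference was -0.11 ± 0.08 (adjusted p = 0.407, 95% interval -0.29 to 0.07).

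The contrast between the synthase genes held in the direct comparisons of treatments. GSC2 was higher after NEM than after H2O2 by 1.34 ± 0.08 (limma adjusted p = 2.2e-08) and higher after acrolein than after H2O2 by 0.96 ± 0.08 (adjusted p = 7.02e-07). It was lower after acrolein than after NEM by 0.38 ± 0.08 (adjusted p = 0.0025). FKS1, in contrast, had no called difference between acrolein and NEM (adjusted p = 0.103) or between NEM and H2O2 (adjusted p = 0.164). FKS3, the third gene of the family, read between 4.52 and 5.26 in the 4 group means, around 5.15, the highest value of any probe set made for another yeast species, and its call after acrolein (-0.51, adjusted p = 0.00823) compares readings of which 4 of 4 acrolein arrays and 1 of 4 control arrays lie at or under that value. It is not read as a change here.

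CWP1 encodes a mannoprotein linked to the glucan of the wall, found mainly at the birth scar. It read 12.61, 12.81, 12.69 and 12.55 in the control, 10.63, 10.85, 10.68 and 10.38 after acrolein, 11.65, 11.39, 11.72 and 11.67 after H2O2, and 10.51, 10.85, 10.99 and 11.07 after NEM. No treated array reached the control range. CWP1 fell by 2.03 ± 0.12 after acrolein (4.08-fold lower, adjusted p = 1.19e-08), by 1.81 ± 0.12 after NEM (3.5-fold lower, adjusted p = 3.58e-08) and, with H2O2, by 1.06 ± 0.12 (2.08-fold lower, adjusted p = 3.78e-05). H2O2 stood between the control and the other treatments: acrolein was lower than H2O2 by 0.97 ± 0.12 (adjusted p = 2.4e-05) and NEM was lower than H2O2 by 0.75 ± 0.12 (adjusted p = 0.000187). Acrolein and NEM differed by -0.22 (95% interval -0.49 to 0.05, adjusted p = 0.154), a difference that was called without NEM replicate 1 (-0.34, adjusted p = 0.022).

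CWP2, a related mannoprotein gene of the wall, went the other way after acrolein and H2O2. It rose by 0.33 ± 0.04 after acrolein (limma adjusted p = 2.58e-05), and after H2O2 the rise was 0.18 ± 0.04 (adjusted p = 0.0101), and differed by 0.11 ± 0.04 after NEM (adjusted p = 0.055). The NEM value was called without control replicate 2 or 3, acrolein replicate 4 or H2O2 replicate 3.

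The PIR proteins carry internal repeats and are bound to glucan through alkali-sensitive links. PIR1 and PIR3 are next to each other on chromosome XI with 0 annotated genes between them (RefSeq table of assembly R64), on opposite strands with their start sites facing. PIR1 read 14.60, 14.60, 14.43 and 14.66 in the control, 13.73, 13.89, 13.95 and 13.87 after acrolein, 14.52, 14.41, 14.42 and 14.68 after H2O2, and 13.89, 13.82, 14.03 and 14.09 after NEM. The acrolein and NEM arrays were all below the control and H2O2 arrays, which overlapped. PIR1 fell by 0.71 ± 0.08 with acrolein (adjusted p = 3.09e-06) and, with NEM, by 0.61 ± 0.08 (adjusted p = 1.27e-05), and differed by -0.06 ± 0.08 after H2O2 (adjusted p = 0.632). Against H2O2 it was lower by 0.65 ± 0.08 with acrolein (adjusted p = 1.18e-05) and by 0.55 ± 0.08 with NEM (adjusted p = 4.03e-05).

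After acrolein PIR3 moved in the opposite direction to its neighbour. It read 9.95, 9.73, 9.78 and 9.81 in the control, 10.79, 10.23, 10.62 and 10.52 after acrolein, 10.07, 9.98, 10.20 and 10.06 after H2O2, and 10.27, 10.22, 10.01 and 9.82 after NEM. The acrolein arrays were the highest as a group, with their lowest array inside the NEM range, and the highest of the 16 arrays was acrolein replicate 1, the array with the poorest RNA measures. PIR3 rose by 0.72 ± 0.12 after acrolein (1.65-fold, limma adjusted p = 0.000106), and by 0.64 without that array, still called. It differed by 0.26 ± 0.12 after H2O2 (adjusted p = 0.129) and by 0.26 ± 0.12 after NEM (adjusted p = 0.0651). The NEM difference was called with replicate number as a block (adjusted p = 0.0427), and without acrolein replicate 1, acrolein replicate 2 or NEM replicate 4, where it was 0.26, 0.26 and 0.35. Acrolein exceeded H2O2 by 0.46 ± 0.12 (adjusted p = 0.00427) and NEM by 0.46 ± 0.12 (adjusted p = 0.00533).

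HSP150, also called PIR2, and CIS3, also called PIR4, are next to each other on chromosome X, again with 0 annotated genes between them but with their ends facing. They too differed in direction after acrolein, at a smaller size. CIS3 ran from 14.31 to 14.50 in the control, 14.56 to 14.78 after acrolein, 14.47 to 14.61 after H2O2 and 14.45 to 14.61 after NEM, and only the acrolein arrays cleared the control range. It rose by 0.27 ± 0.06 after acrolein (1.20-fold, limma adjusted p = 0.00106), and differed by 0.12 ± 0.06 after H2O2 (adjusted p = 0.169) and by 0.13 ± 0.06 after NEM (adjusted p = 0.0584). The NEM difference was called with replicate number as a block (adjusted p = 0.0247) and without control replicate 4 (0.16), acrolein replicate 2 (0.13) or NEM replicate 2 (0.17).

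HSP150, a secreted and heat-inducible member of the family, ran from 14.93 to 15.05 in the control, 14.69 to 14.91 after acrolein, 14.85 to 15.14 after H2O2 and 14.96 to 15.19 after NEM. The acrolein arrays lay just below the control range and the other treatments overlapped it. It fell by 0.20 ± 0.07 after acrolein (limma adjusted p = 0.0274), a call lost under quantile normalization (-0.17) and without control replicate 3, control replicate 4, acrolein replicate 1 or acrolein replicate 2 (adjusted p from 0.0567 to 0.0818). Acrolein was below NEM by 0.25 ± 0.07 (adjusted p = 0.0116). The differences from the control were -0.02 ± 0.07 after H2O2 (adjusted p = 0.917) and 0.05 ± 0.07 after NEM (adjusted p = 0.571). PIR5, a relative of the family, was near the dim end with a control mean of 7.03. It differed by -0.61 ± 0.15 after acrolein (adjusted p = 0.00318), a call lost under quantile normalization (-0.27), by 0.08 ± 0.15 after H2O2 (adjusted p = 0.765) and by 0.08 ± 0.15 after NEM (adjusted p = 0.685).

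CRH1 encodes a transglycosylase that links chitin to glucan, and is known as an Rlm1 output. It ran from 12.13 to 12.63 in the control, 12.13 to 12.37 after acrolein, 12.44 to 12.98 after H2O2 and 12.14 to 12.62 after NEM, and every treated group overlapped the control. No difference from the control was called: -0.20 ± 0.14 after acrolein (limma adjusted p = 0.227), 0.21 ± 0.14 after H2O2 (adjusted p = 0.317) and -0.14 ± 0.14 after NEM (adjusted p = 0.403). Control replicate 3 was the low array, and without it the acrolein difference was called at -0.31 (adjusted p = 0.0486). Acrolein was lower than H2O2 by 0.41 ± 0.14 (adjusted p = 0.0219), a call that ended without acrolein replicate 1, H2O2 replicate 1 or H2O2 replicate 4 (adjusted p from 0.054 to 0.0722). UTR2, the CRH1 relative also called CRH2, gave control differences of 0.01 ± 0.16 for acrolein (adjusted p = 0.97), 0.03 ± 0.16 for H2O2 (adjusted p = 0.94) and 0.21 ± 0.16 for NEM (adjusted p = 0.268), and the signs of the acrolein and H2O2 values turned on leaving out single arrays.

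SLT2 encodes the kinase at the end of the relay, and its own transcript is a known output of the pathway. It read 12.29, 12.11, 11.79 and 12.06 in the control, 12.33, 12.40, 12.23 and 12.51 after acrolein, 12.47, 12.64, 12.28 and 12.77 after H2O2, and 12.55, 12.29, 12.30 and 12.67 after NEM. The treated arrays were high as a group, but control replicate 1 reached into the acrolein and H2O2 ranges. SLT2 rose by 0.48 ± 0.12 after H2O2 (1.40-fold, limma adjusted p = 0.0153), by 0.39 ± 0.12 after NEM (1.31-fold, adjusted p = 0.0149) and by 0.31 ± 0.12 after acrolein (1.24-fold, adjusted p = 0.0444). After acrolein and after NEM the treated array was higher than the control array of the same number in 4 of 4 pairs.

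These SLT2 calls were not firm for every treatment. The acrolein call ended without any 1 of 9 arrays (control replicates 2, 3 and 4, acrolein replicates 1, 2 and 4, H2O2 replicates 1 and 2, and NEM replicate 1), with limma adjusted p from 0.0509 to 0.142, and the value was 0.22 without control replicate 3. The NEM call ended without control replicate 3 (0.30, adjusted p = 0.0516). The H2O2 call held without any single array and ended when acrolein replicate 1 and H2O2 replicate 4 were both left out (0.41). No difference between the treatments was called. The 95% intervals were -0.44 to 0.10 for acrolein against H2O2, -0.36 to 0.18 for acrolein against NEM and -0.36 to 0.18 for NEM against H2O2.

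RLM1 encodes the transcription factor that Slt2 activates. It read 11.42, 11.32, 11.22 and 11.51 in the control, 10.20, 10.83, 10.53 and 10.92 after acrolein, 11.45, 11.28, 11.14 and 11.55 after H2O2, and 10.89, 10.96, 10.88 and 11.37 after NEM. The acrolein arrays were all below the control, and the H2O2 arrays spanned the control range. RLM1 fell by 0.75 ± 0.15 after acrolein (1.68-fold lower, limma adjusted p = 0.000872). Without acrolein replicate 1, the lowest of the 16 arrays, it fell by 0.61 (adjusted p = 0.0022). It differed by -0.01 ± 0.15 after H2O2 (adjusted p = 0.996) and by -0.34 ± 0.15 after NEM (adjusted p = 0.0738). The NEM difference was called with replicate number as a block (adjusted p = 0.0222), without acrolein replicate 1 (-0.34) and without NEM replicate 4 (-0.46), with adjusted p of 0.0353 and 0.0187. Acrolein was below H2O2 by 0.73 ± 0.15 (adjusted p = 0.00133). After acrolein the mean of RLM1 thus lay below the control and that of SLT2 above it. The SLT2 arrays overlapped the control there, and the SLT2 call was not firm.

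Between treatments, the 10 genes separated acrolein from H2O2 most often. In that comparison 9 of 10 were called, 4 higher and 5 lower with acrolein, beside 55.9% of all probe sets (26.0% higher and 30.0% lower). Acrolein against NEM gave 4 of 10 called, 1 higher and 3 lower, beside 49.9% (24.1% and 25.8%), and NEM against H2O2 gave 4 of 10, 1 higher and 3 lower, beside 52.3% (25.1% and 27.2%). The arrays of the 2 treatments did not overlap for 7, 2 and 3 members in these comparisons, beside 46.9%, 40.2% and 46.5% of all probe sets. The PIR3, GSC2 and HSP150 differences between acrolein and NEM are given above. The remaining one was RLM1, lower with acrolein by 0.41 ± 0.15 (limma adjusted p = 0.0437), a call that ended without any 1 of 8 arrays (control replicates 1 and 2, acrolein replicates 1 and 3, H2O2 replicates 1 and 2, NEM replicates 2 and 4; adjusted p from 0.0522 to 0.136). CRH1 was lower with NEM than with H2O2 by 0.35 ± 0.14 (adjusted p = 0.0451). That call ended without any 1 of 10 arrays (control replicates 1 and 2, acrolein replicates 2, 3 and 4, H2O2 replicates 1 and 4, NEM replicates 1, 2 and 3; adjusted p from 0.0515 to 0.138). Against H2O2, HSP150 was lower with acrolein by 0.18 ± 0.07 (adjusted p = 0.048) and CIS3 higher by 0.15 ± 0.06 (adjusted p = 0.0391). CIS3 also exceeded NEM with acrolein by 0.13 (adjusted p = 0.067), called with replicate number as a block and without acrolein replicate 2. RLM1 was below H2O2 with NEM by 0.33 (adjusted p = 0.0919), called without acrolein replicate 1 or NEM replicate 4. The HSP150 call held only without acrolein replicate 4, H2O2 replicate 2, H2O2 replicate 3, NEM replicate 3 or NEM replicate 4, and the CIS3 call ended without acrolein replicate 1, 3 or 4 or H2O2 replicate 1 or 3.

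**Figure D3:**
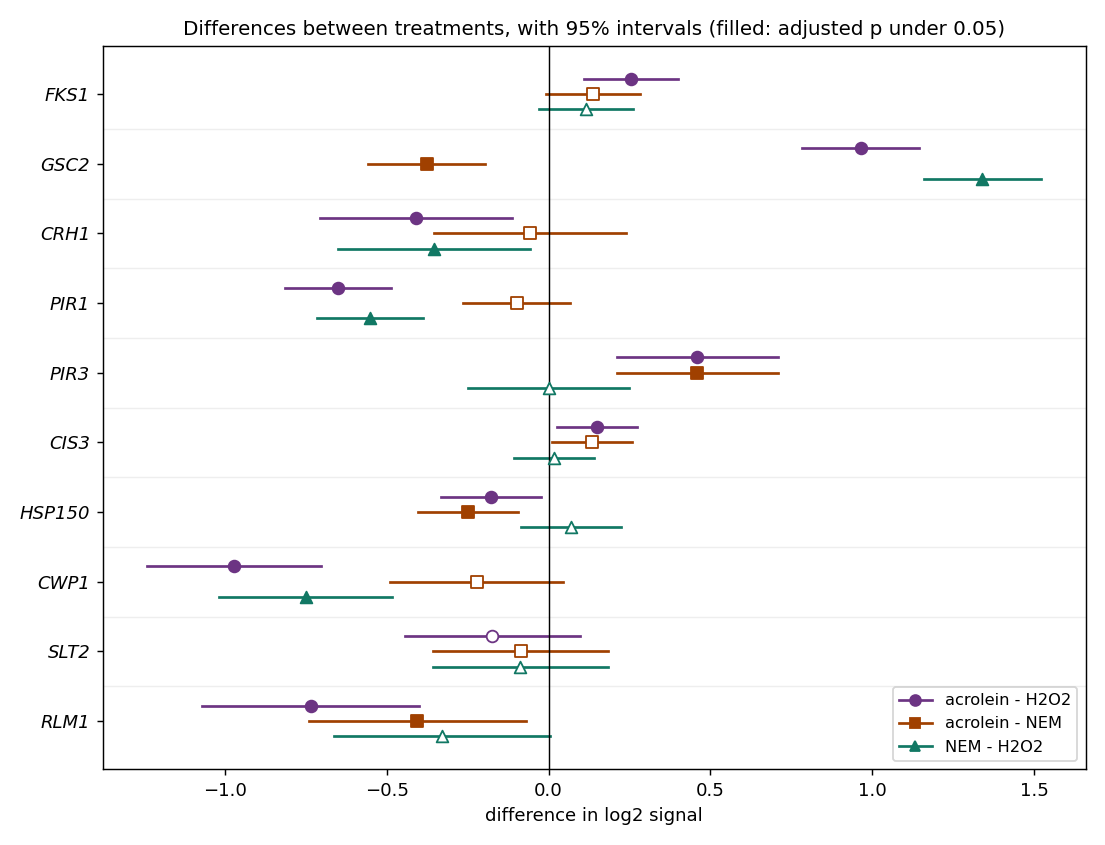
Differences in log2 signal between pairs of treatments for the 10 genes, with 95% intervals of the limma model, 4 arrays per group. Filled symbols have an adjusted p under 0.05. GSC2 shows the widest spread, from -0.38 for acrolein against NEM to 1.34 for NEM against H2O2, and SLT2 has no filled symbol.

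Spread within the groups was shared by some members. CRH1, HSP150 and RLM1 were highest on replicate 4 in 4 of the 4 groups, and PIR1, CIS3 and SLT2 in 3 of 4. CRH1, SLT2 and RLM1 were lowest on replicate 3 in 3 of 4 groups. After subtraction of the group means, Pearson's r over the 16 arrays was 0.80 between CRH1 and RLM1, 0.79 between CRH1 and SLT2 and 0.60 between SLT2 and RLM1. FKS1 had its highest array on replicate 3 in 3 groups and had r = -0.37 with CRH1. These coefficients describe arrays that share replicate numbers, and no test was made of them.

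Another 24 genes of the relay were read beside SLT2 and RLM1. After acrolein 4 rose and 8 fell (median difference -0.06 beside -0.05 over all probe sets), after NEM 7 rose and 5 fell (0.06 beside -0.01), and after H2O2 1 rose and 2 fell (-0.09 beside -0.02). Both acrolein and NEM thus called 12 of 24, beside 64.1% and 58.7% of all probe sets. With 1 array left out, the count ran from 11 to 14 after acrolein and from 12 to 14 after NEM. Whether the relay differs from all probe sets in its called share was not tested.

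The kinases themselves changed little except BCK1, the kinase that activates the Mkk pair. BCK1 rose by 0.82 ± 0.07 after NEM (limma adjusted p = 1.78e-07) and by 0.49 ± 0.07 after acrolein (adjusted p = 2.56e-05), and differed by 0.14 ± 0.07 after H2O2 (adjusted p = 0.147). For PKC1 the differences after acrolein, H2O2 and NEM were -0.06, 0.05 and 0.05 (adjusted p = 0.585, 0.744 and 0.643), for MKK1 0.10, 0.08 and 0.21 (adjusted p = 0.342, 0.606 and 0.0523) and for MKK2 0.09, 0.12 and -0.07 (adjusted p = 0.41, 0.374 and 0.504). None of these 3 kinases was called against the control with all arrays, and MKK1 was called after NEM with replicate number as a block and without control replicate 3 or 4, acrolein replicate 2, H2O2 replicate 4 or NEM replicate 3. KDX1, a catalytically impaired relative of SLT2 also called MLP1 and a known Rlm1 output, rose by 0.63 ± 0.08 after acrolein (adjusted p = 8.76e-06), with 0.21 ± 0.08 after H2O2 (adjusted p = 0.0649) and -0.12 ± 0.08 after NEM (adjusted p = 0.179). The H2O2 value of KDX1 was called without acrolein replicate 3 or 4. RHO1 fell by 0.17 ± 0.04 after H2O2 (adjusted p = 0.0123) and differed by -0.09 after acrolein (adjusted p = 0.0752) and -0.01 after NEM (adjusted p = 0.818), with the acrolein value called without acrolein replicate 2 or 4.

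At the surface, the sensor gene MTL1 rose by 0.74 ± 0.13 after acrolein (limma adjusted p = 0.000185) and by 0.61 ± 0.13 after NEM (adjusted p = 0.00099). Its rise after H2O2, 0.40 ± 0.13 (adjusted p = 0.0396), was no longer called without any 1 of 8 arrays (control replicates 2, 3 and 4, H2O2 replicates 1, 2 and 4, NEM replicates 1 and 2; adjusted p up to 0.113). The sensor genes WSC2 and WSC3, named after their values were seen, moved apart. WSC2 fell by 0.56 ± 0.07 after acrolein and by 0.63 ± 0.07 after NEM (adjusted p = 1.84e-05 and 6.72e-06), while WSC3 rose by 0.43 ± 0.05 and 0.33 ± 0.05 (adjusted p = 5.05e-06 and 5.75e-05). The sensor gene SLG1, also called WSC1, was not called after acrolein, H2O2 or NEM (0.08, 0.02 and 0.27, adjusted p = 0.546, 0.953 and 0.0558). MID2, a further sensor gene, was called only after NEM (-0.20 ± 0.06, adjusted p = 0.0134), with -0.06 after acrolein and 0.04 after H2O2. TUS1, an exchange factor of Rho1, rose by 0.55 ± 0.08 after NEM (adjusted p = 7.66e-05) and fell by 0.42 ± 0.08 after H2O2 (adjusted p = 0.00271).

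The negative regulators were mixed, and the lowest values of the list were among them and for the nuclear partner SWI4. BAG7, a GTPase-activating protein gene of Rho1, fell by 4.62 ± 0.32 after NEM (limma adjusted p = 4.23e-08) and by 3.75 ± 0.32 after acrolein (adjusted p = 3.97e-07), from a control mean of 12.12. The phosphatase gene SDP1, whose product removes phosphate from Slt2, fell by 2.12 ± 0.12 with acrolein (adjusted p = 4.9e-09) and by 0.87 ± 0.12 after NEM (adjusted p = 3.01e-05). PTP3, a tyrosine phosphatase gene, fell by 1.01 ± 0.15 after acrolein and by 1.43 ± 0.15 after NEM (adjusted p = 7.14e-05 and 3.02e-06). LRG1, another GTPase-activating protein gene, fell by 0.85 ± 0.21 after acrolein (adjusted p = 0.00278), and SAC7, also of that kind, rose by 0.42 ± 0.10 after NEM (adjusted p = 0.00331), both named after their values were seen. BEM2, PTP2 and MSG5 were not called against the control. SWI4 fell by 2.44 ± 0.37 after acrolein (adjusted p = 7.35e-05).

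**Figure D4:**
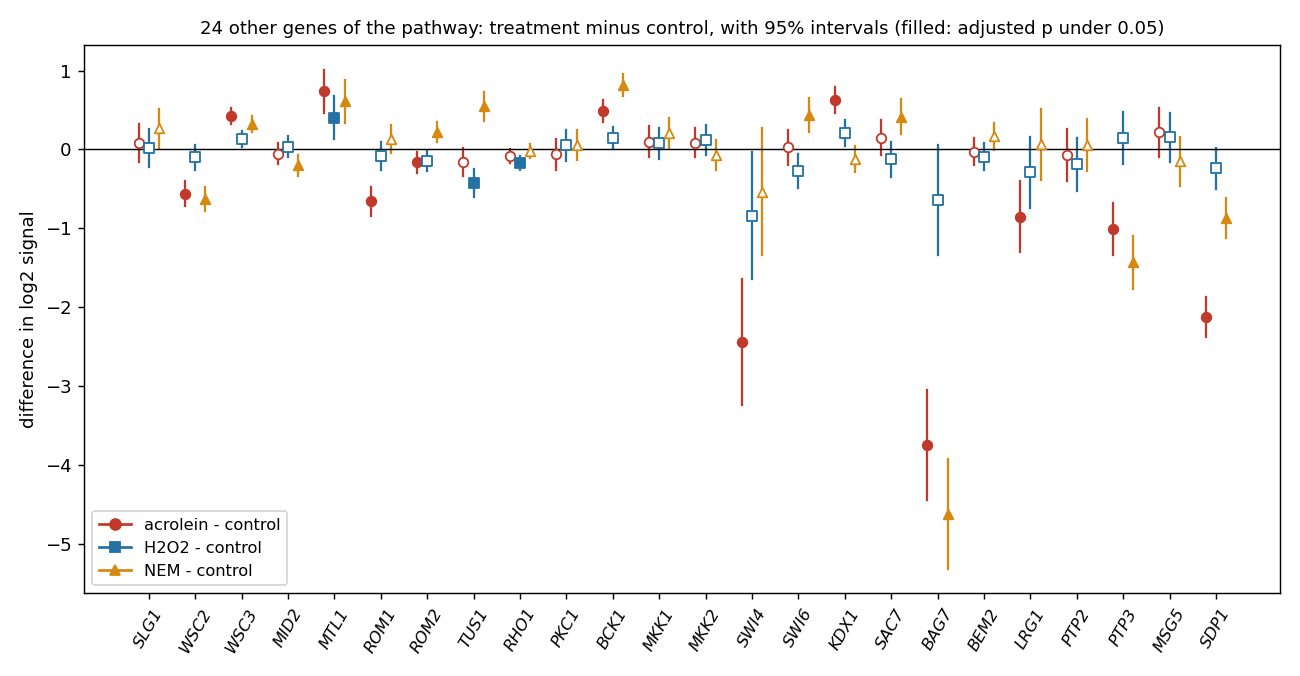
Differences in log2 signal from the control for 24 other genes of the cell wall integrity pathway, with 95% intervals of the limma model, 4 arrays per group, ordered as sensors, exchange factors and RHO1, kinases, nuclear partners and KDX1, GTPase-activating proteins and phosphatases. Filled symbols have an adjusted p under 0.05. The kinases PKC1, MKK1 and MKK2 stay near 0, while SWI4, BAG7, PTP3 and SDP1 have the lowest values. Of these only BAG7 reaches -4.62, after NEM.

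The lists that follow share 6 genes with each other or with the relay list (BGL2, CHS2, CHS3, KDX1, PST1 and SED1), each counted in both of its lists. Their counts are to be read beside the 64.1%, 58.7% and 19.9% of all probe sets called after acrolein, NEM and H2O2. After acrolein the called share was 66.7% of the output list, 55.0% of the glucan list, 71.4% of the wall protein list and 54.5% of the chitin list. For calcineurin it was 44.4%, for M/G1 81.8%, for G1 76.9%, for G2/M 100% and for general stress 94.4%. After NEM the shares of these lists ran from 33.3% for G2/M to 77.8% for the output list. After H2O2 they were 66.7% for G2/M and 42.9% for the wall protein list, and otherwise from 0.00% for M/G1 to 33.3% for calcineurin.

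Genes known as outputs of the pathway, 9 of them measured besides the members, were mixed in direction. After acrolein 3 rose and 3 fell (median difference 0.01), after NEM 4 rose and 3 fell (-0.08), and after H2O2 2 rose and none fell (-0.00). PRM5, a strongly wall-stress-inducible gene, rose by 1.00 ± 0.11 after acrolein (limma adjusted p = 4.13e-06) and by 0.48 ± 0.11 after NEM (adjusted p = 0.00221). Its rise of 0.39 ± 0.11 after H2O2 (adjusted p = 0.0244) was no longer called without control replicate 2 or 3 or H2O2 replicate 2 or 4. SVS1 rose by 0.84 ± 0.10 with acrolein (adjusted p = 7.62e-06) and by 0.59 ± 0.10 after NEM (adjusted p = 0.000169). PST1, a wall protein gene linked to wall repair, went in opposite directions: it rose by 0.32 ± 0.07 after H2O2 (adjusted p = 0.00748) and fell by 0.74 ± 0.07 after NEM (adjusted p = 1.57e-06). SED1, a major wall mannoprotein gene, fell by 0.44 ± 0.09 after acrolein (adjusted p = 0.000675).

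Among 20 other genes of glucan synthesis and remodelling, 5 rose and 6 fell after acrolein (median -0.02), or 5 fell without FKS3, 5 rose and 4 fell after NEM (0.06), and 2 rose and 1 fell after H2O2 (0.03). SCW10, a glucanase-like wall protein gene, rose by 1.05 ± 0.11 after acrolein, 0.59 ± 0.11 after NEM and 0.58 ± 0.11 after H2O2 (limma adjusted p = 3.1e-06, 0.000514 and 0.00264). KNH1, a relative of KRE9 in glucan assembly, fell, with differences of -2.46 ± 0.31 after acrolein and -2.58 ± 0.31 after NEM (adjusted p = 1.34e-05 and 9.2e-06). The exoglucanase gene EXG1 fell by 0.92 ± 0.10 and 0.67 ± 0.10 (adjusted p = 5.21e-06 and 8.72e-05).

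Other wall protein genes gave 4 up and 6 down of 14 after acrolein, 4 up and 2 down after NEM, and 4 up and 2 down after H2O2 (medians -0.02, -0.00 and 0.06). TIR1, a mannoprotein gene of cold and low oxygen, rose by 1.14 ± 0.16 after acrolein, 0.88 ± 0.16 after NEM and 0.64 ± 0.16 after H2O2 (limma adjusted p = 4.33e-05, 0.000432 and 0.0147). TOS6 rose by 1.20 ± 0.16 after acrolein and 0.65 ± 0.16 after NEM (adjusted p = 2.82e-05 and 0.00403). YGP1, a secreted glycoprotein gene of nutrient stress, rose by 0.48 ± 0.10 after NEM (adjusted p = 0.00107).

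Of 11 chitin genes 2 rose and 4 fell after acrolein, 3 rose and 4 fell after NEM, and 1 rose and 2 fell after H2O2 (medians -0.03, -0.08 and -0.05). GNA1, an acetyltransferase of the chitin precursor, fell by 1.00 ± 0.08 after acrolein, 0.86 ± 0.08 after NEM and 0.34 ± 0.08 after H2O2 (limma adjusted p = 1.12e-07, 4.48e-07 and 0.00672). CHS6, which helps bring chitin synthase to the surface, rose by 0.62 ± 0.16 after acrolein and 0.83 ± 0.16 after NEM (adjusted p = 0.00349 and 0.000441). CHS2, the septum chitin synthase gene, fell by 1.27 ± 0.12 after acrolein (adjusted p = 7.34e-07). Its falls of 0.41 ± 0.12 after H2O2 and 0.31 ± 0.12 after NEM (adjusted p = 0.0245 and 0.033) were no longer called without control replicate 1, 2 or 4, without H2O2 replicate 1, 2 or 3, or without NEM replicate 1 or 2, respectively.

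Calcineurin is a calcium-dependent phosphatase that acts by dephosphorylation, which transcript levels do not show. Of 9 genes of this phosphatase and its calcium supply measured, none rose and 4 fell after acrolein (median -0.20), 2 rose and 3 fell after NEM (-0.03), and none rose and 3 fell after H2O2 (-0.07). The vacuolar calcium exchanger gene VCX1 fell by 0.82 ± 0.06 after acrolein and by 0.70 ± 0.06 after NEM (limma adjusted p = 9.86e-08 and 4.3e-07). The regulatory subunit gene CNB1 fell by 0.59 ± 0.08 and 0.27 ± 0.08 (adjusted p = 2.51e-05 and 0.0106). CRZ1, its transcription factor gene, fell by 0.29 ± 0.08 after acrolein and 0.39 ± 0.08 after H2O2 (adjusted p = 0.00549 and 0.00321), CMK2, a kinase gene under Crz1, by 0.20 ± 0.04 and 0.26 ± 0.04 (adjusted p = 0.000365 and 0.000179), and RCN1, a calcineurin inhibitor gene under Crz1, by 0.81 ± 0.13 after H2O2 (adjusted p = 0.000497). PMC1, the vacuolar calcium pump gene, rose by 0.18 ± 0.05 after NEM (adjusted p = 0.00665).

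Several wall genes, PIR1 and PIR3 among them, are known to vary through the cell cycle, and cell cycle genes moved in the same samples. All 12 measured G2/M genes were called lower after acrolein (median -1.26), 8 fell after H2O2 (-0.46), and 3 fell and 1 rose after NEM (-0.10). The mean over this list was 11.03 to 11.19 on the control arrays, 9.87 to 10.07 after acrolein, 10.52 to 10.72 after H2O2 and 10.74 to 11.20 after NEM. The mitotic cyclin genes CLB2 and CLB1 fell by 2.45 ± 0.19 and 1.77 ± 0.18 after acrolein (limma adjusted p = 1.44e-07 and 1.99e-06), CLB1 fell by 1.05 ± 0.18 after NEM (adjusted p = 0.000226), and BUD4, a bud-site gene, rose by 0.65 ± 0.10 after NEM (adjusted p = 0.000105). SWI5, the factor gene of the M/G1 programme, fell by 1.46 ± 0.07 after acrolein, 0.54 ± 0.07 after H2O2 and 0.48 ± 0.07 after NEM (adjusted p = 2.07e-09, 0.000163 and 0.0001). The haspin-like kinase gene ALK1 fell by 0.71 ± 0.12 after H2O2 (adjusted p = 0.00104).

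PIR1 and PIR3 are both known as genes of the M/G1 phase. Other genes of M/G1 gave 9 of 11 lower after acrolein, 5 lower after NEM and 0 called after H2O2. No gene of this list was called higher under any treatment. By limma, 1 of the 11 had an unadjusted p under 0.05 after H2O2, and the adjusted count was 1 without control replicate 2, acrolein replicate 4 or H2O2 replicate 3. The mean over this list was 13.21 to 13.41 in the control, 12.47 to 12.81 after acrolein, 13.10 to 13.34 after H2O2 and 12.92 to 13.11 after NEM. DSE4 fell by 1.61 ± 0.16 after acrolein (limma adjusted p = 1.89e-06), SCW11, a separation glucanase gene, by 0.90 ± 0.12 (adjusted p = 3.06e-05), and ASH1, a daughter-cell repressor gene, by 1.17 ± 0.14 (adjusted p = 8.51e-06) with 0.71 ± 0.14 after NEM (adjusted p = 0.000654). PCL9 fell by 1.05 ± 0.14 after acrolein and 1.29 ± 0.14 after NEM (adjusted p = 2.72e-05 and 4.23e-06). PIR1 fell after acrolein and NEM, where the means of this list lay below the control range, and PIR3 rose after acrolein.

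G1 genes gave 3 up and 7 down of 13 after acrolein, 2 up and 5 down after NEM, and 2 up and 1 down after H2O2 (medians -0.37, -0.17 and 0.09). These falls include PCL1 under every treatment (-1.78, -1.60 and -1.69 after acrolein, NEM and H2O2) and CLB6 after acrolein and NEM (-0.37 and -0.44), G1 cyclin and B-type cyclin genes that read in the background range on every array compared. Without both, 5 fell after acrolein, 3 after NEM and 0 after H2O2. The list means, which hold both genes, were 8.62 to 8.89 in the control, 7.94 to 8.27 after acrolein, 8.54 to 8.97 after H2O2 and 8.37 to 8.76 after NEM. The cyclin gene CLN1 fell by 4.15 ± 0.37 after acrolein (limma adjusted p = 6.04e-07), to a mean of 5.31 at the edge of the background. RNR1, a ribonucleotide reductase gene, rose by 0.78 ± 0.15, 0.81 ± 0.15 and 0.82 ± 0.15 after acrolein, H2O2 and NEM (adjusted p = 0.000431, 0.00159 and 0.000308). The part of these cell cycle shifts in the wall gene values was not tested.

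General stress genes under Msn2 and Msn4, another input known for some wall genes, fell after acrolein in 17 of 18 cases (median -0.49) and after NEM in 12 (-0.31), with 1 up and 2 down after H2O2 (-0.08). The mean over this list was 14.27 to 14.40 in the control, 13.27 to 13.53 after acrolein, 14.18 to 14.32 after H2O2 and 13.59 to 13.81 after NEM. XBP1, a stress-induced repressor gene of cyclins, fell by 4.69 ± 0.48 after acrolein and 1.54 ± 0.48 after NEM (limma adjusted p = 2.11e-06 and 0.0139). Its mean after acrolein was 6.36, with 1 acrolein array in the background range. SIP18 fell too, with differences of -2.80 ± 0.30 and -2.56 ± 0.30 after acrolein and NEM (adjusted p = 2.73e-06 and 6.42e-06), and so did DDR2, with -1.42 ± 0.11 and -1.11 ± 0.11 (adjusted p = 1.29e-07 and 1.39e-06). The catalase gene CTT1 rose by 0.55 ± 0.11 after H2O2 (adjusted p = 0.0045) and fell by 1.64 ± 0.11 after NEM (adjusted p = 4.21e-08). GSC2 rose after acrolein and NEM, where this list lay below the control range, while CWP1 also fell after H2O2, where the list overlapped it. The part of the list in either was not tested.

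The genes most like each member over the 16 arrays were found by Pearson's r among all named genes that are not members. FKS1 was closest to NOP1, the nucleolar fibrillarin gene (r = 0.97), and LIA1 (0.97). GSC2 was closest to YOR161C-C and SNT1 (0.98 for both). YOR161C-C read 1.92, the lowest value of the file, on all control and H2O2 arrays, so its coefficient rests on the contrast of those arrays with the others, and it cannot vary within those groups. After subtraction of group means r with SNT1 was 0.90. PIR1 was closest to TUF1, a mitochondrial elongation factor gene, and GDH1, a glutamate dehydrogenase gene (0.98 for both). PIR3 was closest to RPS3, a ribosomal protein gene (0.92), and PCM1 of the chitin precursor route (0.91). CIS3 was closest to RPP1 (0.92) and YML082W (0.89). HSP150 was closest to BIK1, a microtubule-binding protein gene (0.93), and PRY3 (0.91). CWP1 was closest to ICY1 and ERG1, the squalene epoxidase gene (0.97 for both), with 0.45 and 0.58 within groups.

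RLM1 was most like PIL1, an eisosome core gene (0.97, and 0.93 within groups), and MDM36 (0.97 and 0.89). CRH1 was most like AAT2, an aspartate aminotransferase gene (0.92), and CTR2, a vacuolar copper transporter gene (0.90). SLT2 was most like the casein kinase gene HRR25 and DLS1 (0.88 for both), and its likeness to them was as large within groups (0.91 for both) as over all arrays. The 16 arrays share groups, replicate numbers and normalization, and these coefficients describe likeness only. Between members, r over the 16 arrays was lowest for FKS1 and CWP1 (-0.93) and highest for PIR1 and CWP1 (0.88). The neighbours PIR1 and PIR3 had r = -0.72, and HSP150 and CIS3 had r = -0.22.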

How the data were processed

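The authors normalised the arrays with GCRMA, per the submitters' processing notes (version not given in the sources used here), and deposited log2 signal values. These values of 10928 probe sets on 16 arrays were used without rescaling. Probe sets were named through the platform annotation and the RefSeq gene table (assembly R64; 12 symbols updated), the brightest per gene by its mean over all arrays being kept. Control probe sets (213), those of another yeast species (1746) and constant ones (3145) were left out, which left 5775 tested, 5404 of them named. One model with a mean per group was fitted to all 16 arrays in limma 3.58.1 (R 4.3.3; 12 residual degrees of freedom), two-sided, with Benjamini-Hochberg adjustment per comparison and called at 0.05. It was tested on simulated data with independent noise on each array, which does not copy the correlations between same-numbered arrays given below. Python 3.11.15, pandas 2.3.3 and matplotlib 3.10.9 did the rest.

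The members, the 10 gene lists and the tests were chosen with earlier results of these data known. Text names follow a rule: all members, the relay kinases and member relatives, up to 4 called genes of largest difference per list and treatment, and the 2 genes most like each member; WSC2, WSC3, SAC7, LRG1 and CLB6 were added. SLG1 stands for WSC1 in the pathway list. For SLG1 and MID2, also added, only the values of the main model are given. NCW2, TOH1 and ENA1 were not analysed here. Same-numbered arrays of the control, acrolein and NEM had residual correlations of 0.20 to 0.56 in every pair, so these numbers pair the arrays, as deduced from the data. Except where a replicate block is named, the SEs, intervals and p-values are from the model without this pairing. For H2O2 replicates 1 and 2 the correlations were negative. In the same pairings with H2O2, the highest correlation with an array of another number was 0.39 to 0.51. Whether these H2O2 numbers are crossed was not tested. A replicate block, other samples, priors, weights, normalizations, filters, probe set rules and thresholds, and each array left out, were the alternatives. Sequences were not used here.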

Additional observations from a re-analysis of the deposited data

Results flagged for a closer look

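Of 213 groups of 4 arrays examined for the genes named above, 15 held an array whose gap to the nearest other exceeded Dixon's 95% critical value as a share of the range, and chance flags about 1 in 20 groups. Among the members, CRH1 read 12.13 on control replicate 3, against 12.55 to 12.63 on the other controls, and RLM1 read 11.37 on NEM replicate 4, against 10.88 to 10.96.

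Control replicate 3 was also low for FKS3 (4.62), MTL1 (11.19) and WSC3 (11.61). Acrolein replicate 1, the array with the highest ribosomal RNA signal, was low for BAG7 (7.51), MTL1 (11.77) and PCL9 (9.31). The other arrays with such a gap were NEM replicate 3 for PIR5 (7.37), NEM replicate 2 for SDP1 (10.95), H2O2 replicate 3 for SWI5 (10.80), acrolein replicate 3 for TOS6 (11.76) and control replicate 2 for WSC2 (12.51). CLB6, in the background range, had such gaps on control replicate 3 (3.37) and NEM replicate 3 (2.66).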

How the results depend on the processing

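Over 31 alternatives, the 10 genes in 6 comparisons gave 1860 values, of which 1697 kept their direction and call, 119 lost the call, 27 gained it and 17 changed sign. With a replicate block, NEM raised 5 members against 3, acrolein exceeded NEM in 2 against 1, and after H2O2 8 pathway, 5 glucan and 5 chitin genes were called against 3, 3 and 3; for H2O2 the numbers 1 and 2 do not pair the arrays, and the block ended no member's call. Besides the calls named above it added CIS3 between acrolein and NEM (0.13), RLM1 between NEM and H2O2 (-0.33) and BCK1 after H2O2 (0.14), and changed no other call named above. Fitting only the 2 groups compared gave 7 pathway and 5 general stress genes after H2O2 (3 and 3), and array weights gave 6 pathway genes, 1 M/G1 gene (0) and 2 members higher with acrolein than NEM (1), as did quantile normalization (2). Without acrolein replicate 1 and H2O2 replicate 4, H2O2 raised 1 member (2) and acrolein was below H2O2 for 3 (5).

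At adjusted p under 0.01, H2O2 raised 1 member, acrolein was below H2O2 for 3 and below NEM for 1; H2O2 called 1 pathway, 1 output, 2 wall protein and 5 G2/M genes, and NEM 4 output, 4 chitin, 2 calcineurin and 3 M/G1 genes. With at least 2-fold required, acrolein raised 0 members and lowered 1, NEM raised 1 and lowered 1, H2O2 raised 0, acrolein against H2O2 gave 0 either way, acrolein against NEM 0 either way and NEM below H2O2 0. The lists in the order described (pathway, output, glucan, wall protein, chitin, calcineurin, M/G1, G1, G2/M, stress) then gave 4, 1, 2, 2, 2, 0, 3, 3, 7 and 5 after acrolein, 2, 0, 1, 0, 0, 0, 1, 2, 1 and 5 after NEM, and 0 after H2O2 except PCL1 in the G1 list. PCL1 read in the background range on every array compared. The G1 counts after acrolein and NEM also hold PCL1, and are 2 and 1 without background genes. Fewer genes pass by construction.

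With 1 array left out, members raised by NEM ran from 2 to 5, members lower with acrolein than H2O2 from 3 to 5 and higher than with NEM from 1 to 2. After H2O2 the called genes ran from 2 to 5 (pathway), 1 to 3 (output), 2 to 5 (chitin), 0 to 1 (M/G1) and 5 to 9 (G2/M), and after NEM from 4 to 7 (chitin). The values that changed sign were all uncalled except FKS3 after acrolein and CLB6 after NEM: CRH1 acrolein minus NEM (-0.12 to 0.0401; 0.0148 with array weights), PIR3 NEM minus H2O2 (-0.0639 to 0.0870; -0.0076 without acrolein replicate 1 and H2O2 replicate 4), CIS3 NEM minus H2O2 (-0.0095 to 0.0528; -0.0051 with array weights), HSP150 and RLM1 after H2O2 (-0.0741 to 0.0235 and -0.0760 to 0.0596), PIR5 after H2O2 and NEM (-0.0442 to 0.16 and -0.0054 to 0.12), PKC1 after NEM (-0.0577 to 0.12; -0.0085 with array weights), and UTR2 after acrolein and H2O2 (-0.0835 to 0.18 and -0.0604 to 0.13). Quantile normalization turned 2 calls in the background range, FKS3 after acrolein to 0.0566 and CLB6 after NEM to 0.0070. The cause was not tested.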
